A study of Mus musculus with 50 samples.

Results

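The sites described here are places in the genome of cortical astrocytes, away from gene starts, where GR, the glucocorticoid receptor (gene Nr3c1), and NFIA, a nuclear factor I protein, both gave a peak of binding. A GR site was a merged region with a GR peak in at least 2 of the 3 astrocyte libraries of normally reared mice, and an NFIA site was made in the same way from the 3 NFIA astrocyte libraries. A GR site was kept when it overlapped an NFIA site by at least 1 bp and its midpoint lay more than 500 bp from every annotated transcription start. This gave 6315 distal sites of both factors, which is 50.7% of the 12458 GR sites and 93.3% of the 6770 distal GR sites. The sites were thus chosen by the peak calls of these 6 libraries, whose values at the sites are a description and carry no test. The other GR sites were 5557 promoter sites of both factors, 455 distal sites without NFIA and 131 promoter sites without NFIA. A further 7712 of 14003 distal NFIA sites had no GR site.

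Binding was measured by CUT&RUN, in which an antibody guides a nuclease to the bound protein so that short DNA fragments around it are released and sequenced. The in vivo libraries came from 175000 sorted nuclei of primary visual cortex (V1) at postnatal day 14, each replicate pooling several mice. GR was profiled in GR-KO astrocytes (2 libraries), where a virus carrying Cre under the astrocyte promoter GfaABC1D was given at birth to mice with floxed GR alleles, and in GR-con astrocytes (2 libraries), where the same mice received inactive ΔCre. GR was also profiled in astrocytes of dark-reared (DR, 3 libraries) and normally reared (NR, 3 libraries) mice labelled WT, which likewise carried the ΔCre virus as their nuclear label. Oligodendrocytes (Olig2-Cre;Sun1-GFPfl/fl), inhibitory neurons (InN, Slc32a1-Cre;Sun1-GFPfl/fl) and excitatory neurons (ExN, Slc17a7-Cre;Sun1-GFPfl/fl) of NR mice gave 3 libraries each for GR and for NFIA. These genotypes are those of the labels, while the study's methods give mice heterozygous for the reporter. The 3 NFIA libraries of NR astrocytes are labelled WT, whereas the methods describe NFIA in astrocytes only for mice with floxed GR alleles, and these statements cannot be reconciled here. Olig2-Cre also marks precursors of the oligodendrocyte lineage, so the Cre driver sets which nuclei each of these groups holds. 3T3 cells, a mouse fibroblast line, were exposed for 2 h to 200 nM dexamethasone (DEX), a synthetic glucocorticoid, or to vehicle, with 2 libraries each at 50000 and at 250000 nuclei.

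GR is a hormone-activated nuclear receptor that moves from the cytoplasm to the nucleus once bound by a glucocorticoid. It can bind DNA directly at the glucocorticoid response element (GRE), a palindrome of hexamers, or be recruited through other DNA-bound proteins, and the sites it uses differ between cell types with the chromatin that other factors have opened. NFIA belongs to the nuclear factor I family, which binds a palindrome of TTGGC and GCCAA as a dimer or 1 arm of it more weakly, and which is known for switching neural precursors to the making of astrocytes.

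Sequences are shown for the best-ranked distal sites with a complete GRE within 50 bp of the GR summit. They are also shown for those with a complete NFI palindrome within 50 bp of the NFIA summit. Both motifs were rare at these sites, and no window shown held both. The rank was the mean percentile of a site's fold enrichment in the 2 GR-con libraries, and a site is named by its nearest protein-coding gene start, which does not make that gene its target. Capitals mark the motif, and each run spans 50 bp to either side of the summit on the plus strand of GRCm38.p6, the assembly of mm10, as given by RefSeq. The GRE was searched as GNACANNNTGTNC and the NFI palindrome as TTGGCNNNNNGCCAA, both of which read the same on either strand. With a GRE, the windows were chr11:69097036-69097136 in an intron of Per1, chr19:38260457-38260557 upstream of Lgi1, chr15:38585781-38585881 upstream of Azin1, chr3:25903283-25903383 in an intron of Nlgn1 and chr11:117259741-117259841 in an intron of Sept9.
Per1: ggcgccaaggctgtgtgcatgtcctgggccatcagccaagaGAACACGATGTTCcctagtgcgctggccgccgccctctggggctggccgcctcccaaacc
Lgi1: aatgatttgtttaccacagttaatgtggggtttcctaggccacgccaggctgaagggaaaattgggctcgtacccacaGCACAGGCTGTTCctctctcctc
Azin1: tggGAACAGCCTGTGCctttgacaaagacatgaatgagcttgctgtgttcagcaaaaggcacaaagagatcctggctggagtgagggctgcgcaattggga
Nlgn1: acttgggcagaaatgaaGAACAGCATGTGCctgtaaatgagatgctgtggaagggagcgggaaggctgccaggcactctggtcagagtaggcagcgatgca
Sept9: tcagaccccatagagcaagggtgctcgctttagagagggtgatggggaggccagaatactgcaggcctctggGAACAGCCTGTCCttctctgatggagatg
With an NFI palindrome, the windows were chr9:42196694-42196794 near Sc5d, chr8:121893043-121893143 in an intron of Slc7a5 and chr15:85613980-85614080 upstream of Wnt7b.
Sc5d: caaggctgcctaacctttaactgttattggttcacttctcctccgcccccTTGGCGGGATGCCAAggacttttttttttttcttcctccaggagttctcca
Slc7a5: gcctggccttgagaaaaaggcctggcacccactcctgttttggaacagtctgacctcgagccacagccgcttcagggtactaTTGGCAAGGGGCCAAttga
Wnt7b: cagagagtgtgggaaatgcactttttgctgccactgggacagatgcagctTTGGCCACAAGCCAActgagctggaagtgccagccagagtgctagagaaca

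The site in Per1, which encodes a core repressor of the circadian clock, had GR peaks of 16.2-fold and 17.97-fold enrichment in the GR-con libraries and no peak in the GR-KO or DR libraries. In 3T3 cells it had a peak in all 4 DEX libraries and in no vehicle library. The site upstream of Lgi1, which encodes a secreted protein of the synapse, had 16.2-fold enrichment in each GR-con library and none called in GR-KO or DR. The distal Azin1 site, far from the start of a gene that encodes an inhibitor of antizyme, had 17.8-fold and 10.7-fold enrichment in GR-con with no GR-KO or DR peak. Sept9 encodes a cytoskeletal septin, and its site had 11.1-fold and 9.75-fold enrichment in GR-con, no GR-KO or DR peak, and a peak in all 4 DEX libraries. The Nlgn1 site, in the gene of a postsynaptic adhesion protein, was the exception among these 5, with 6.23-fold enrichment in GR-KO replicate 1 beside 14.7-fold and 9.87-fold in GR-con. The sites with a palindrome differed in GR. The better-ranked Sc5d site had NFIA enrichment of 32.5-fold, 25.8-fold and 32.4-fold and GR enrichment of 7.22-fold and 10.3-fold in GR-con. The Slc7a5 site, in the gene of a large neutral amino acid transporter, had 28.4-fold, 37.0-fold and 29.4-fold NFIA enrichment, while its GR enrichment was 5.91-fold in 1 GR-con library with no peak in the other. The Wnt7b site, near the gene of a Wnt ligand, had NFIA peaks of 18.6-fold, 14.6-fold and 12.2-fold and no GR-con peak.

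A complete GRE was present at the GR summit in 68 of the 6315 distal sites (1.08%, 95% Wilson interval 0.8503% to 1.36%), against 0.206% of windows of the same length 1 kb to either side. The share was 0.162% at promoter sites of both factors, 1.32% at distal GR sites without NFIA and 0.415% at distal NFIA sites without GR. The looser core ACANNNTGT, which every complete GRE contains, was found at 3.83% of the distal sites of both factors and in 2.99% of their flanks. These intervals cover counting error only, and overlapping or neighbouring sites are not independent of each other.

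For NFI the arms were frequent and the palindrome rare. The half-site TTGGCA, on either strand, lay at 21.4% of NFIA summits and 19.2% of GR summits of the distal sites of both factors, with 5.28% and 5.11% in the flanks. The complete palindrome lay at only 5 NFIA summits and 1 GR summit. A form shortened by 1 base at each end, TGGCNNNNNGCCA, which contains every complete palindrome and was added after the data were seen, lay at 154 NFIA summits (2.44%, interval 2.09% to 2.85%) and 118 GR summits (1.87%). At distal NFIA sites without GR, NFIA summits held this shortened palindrome in 806 cases (10.5%, interval 9.79% to 11.2%) and the half-site in 26.8%. At promoter sites of both factors the half-site share was 5.04%, close to the 4.88% of their flanks. A GRE and an NFI half-site or palindrome were found together at 7 distal sites of both factors, and neither at 79.9%.

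Other patterns searched in the same windows were an E-box CAGCTG at 10.6% of GR summits (flanks 5.32%), the LHX homeobox site TAATTA at 3.63% (2.49%), the AP-1 site TGANTCA at 2.79% (2.69%) and the CTCF core at 1.03% (0.0633%). Each pattern was searched on both strands. The median GC content was 54.5% at GR summits of distal sites of both factors and 47.5% in their flanks, against 65.3% at promoter sites and 49.5% at distal GR sites without NFIA. The motif shares therefore stand beside a difference in base composition whose part in them was not tested.

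**Figure D1:**
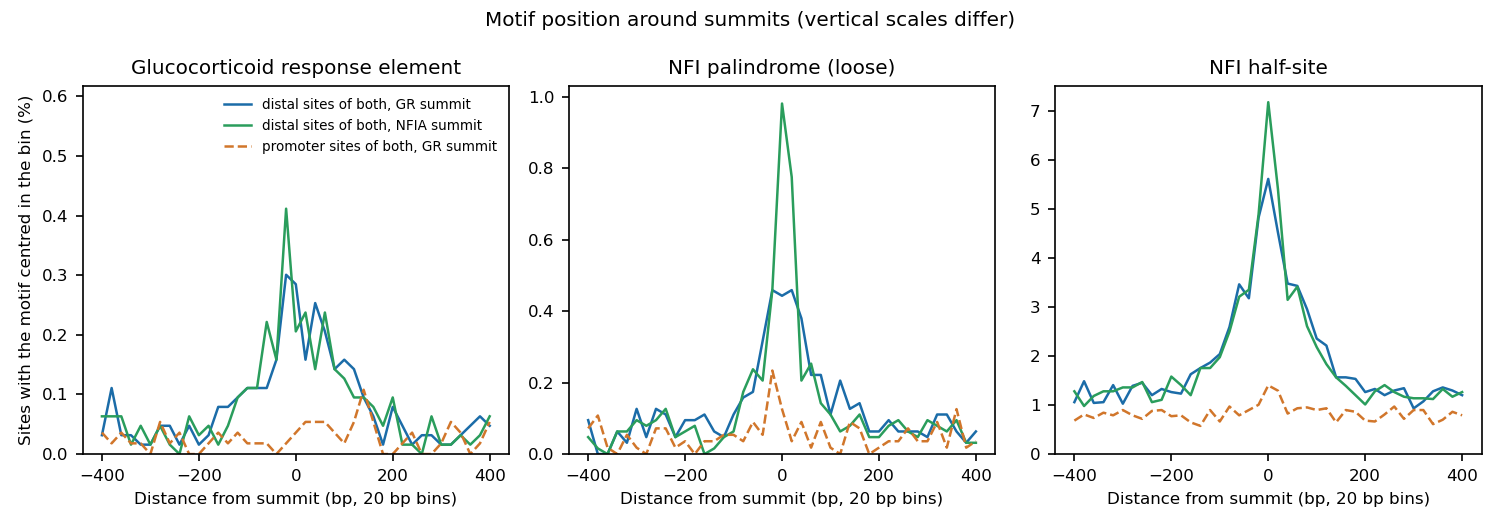
Share of sites (%) with a motif centred in each 20 bp bin of distance from the summit (bp), for the full GRE, the shortened NFI palindrome and the NFI half-site, at distal sites of both factors around GR summits (blue) and NFIA summits (green) and at promoter sites of both around GR summits (orange, dashed). The vertical scales differ between panels. At the distal sites the motif share was highest around the summit, and within 50 bp of the summit it reached 1.08% for the GRE, 1.87% for the palindrome and 19.2% for the half-site at GR summits.

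GR and NFIA sites had to overlap by the rule, which by itself keeps their summits close, so the distances are a description. GR and NFIA summits lay close together. Their median distance was 24 bp at the distal sites of both factors, with 44.1% within 20 bp, 74.5% within 50 bp and 92.1% within 100 bp. At promoter sites of both factors the median was 19 bp. Between replicate libraries of the same factor the summits of these distal sites differed by a median of 28 to 39 bp for GR and 23 bp for NFIA, and between single GR and NFIA libraries by 26 to 39 bp. The distances between single GR and NFIA libraries thus overlapped those between GR replicates. The sites had a median width of 235 bp (76 to 1223 bp).

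**Figure D2:**
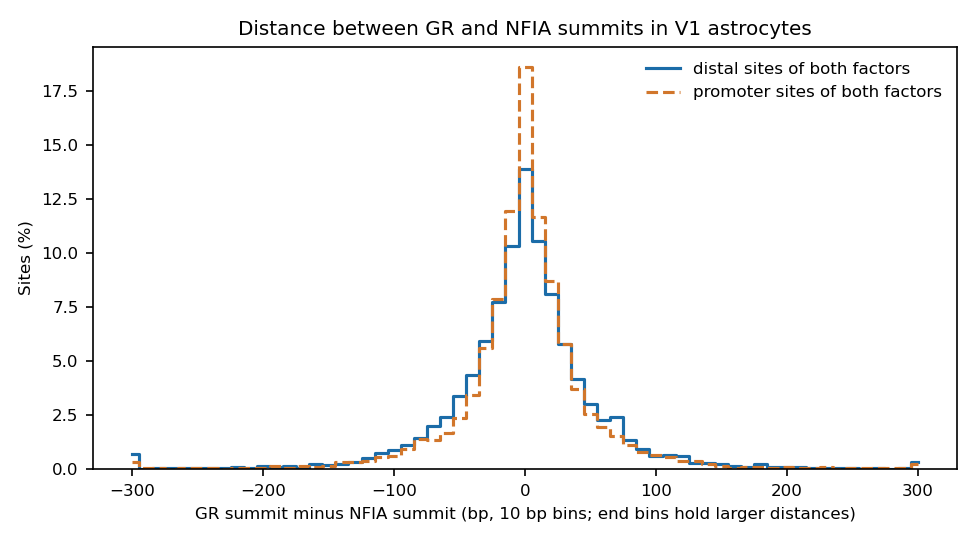
Distribution of the distance from the NFIA summit to the GR summit (bp, 10 bp bins) at distal (blue) and promoter (orange, dashed) sites of both factors, as a share of sites (%). The end bins hold all larger distances. Both distributions peak at 0, with medians of 24 bp and 19 bp.

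Introns held 56.1% of the distal sites of both factors, 37.5% were intergenic, 3.93% exonic and 2.49% in untranslated regions. The median distance to the nearest protein-coding start was 24.5 kb. Of all 6315 sites, 19.4% lay 0.5 to 5 kb from such a start, 49.1% at 5 to 50 kb and 30.6% at 50 to 500 kb. The sites just inside the 500 bp rule, at 502 bp, were near Smc5, Pdcl and Iqcn. Their GR-con peaks numbered 2, 0 and 1 of 2 libraries. Those just outside, at 499, 498 and 498 bp, were near Dock6, Map2 and Gm20383, with GR-con peaks in 0, 2 and 2 libraries.

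Deletion of the receptor was the first comparison that the choice of sites did not use. GR peaks were called at 18.5% and 1.55% of the distal sites of both factors in the 2 GR-KO libraries, and at 55.7% and 49.0% in the 2 GR-con libraries. The groups did not overlap. The mean share was 10.0% ± 11.97 in GR-KO and 52.4% ± 4.71 in GR-con (SD, n = 2 each), a difference of -42.3 percentage points with an exact two-sided permutation p of 0.333, the smallest that 2 libraries against 2 allow. The GR-KO libraries held 1846 and 413 peaks in all, against 7761 and 6792 in GR-con. Of these peaks, 64.4% and 23.97% lay at distal sites of both factors in GR-KO and 46.5% and 46.7% in GR-con. In pooled nuclei, fewer nuclei with bound GR and less bound GR per nucleus cannot be told apart. The peak lists hold no expression, so the loss of the receptor itself was not analysed here.

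Both GR-con libraries had a peak at 2388 of the distal sites of both factors (37.8%), where the share over all astrocyte GR sites was 29.4%. At least 1 GR-KO library had a peak at 1201 (19.0%), against 12.6% of all GR sites and 5.78% of the promoter sites of both factors. Only 64 sites (1.01%) had a peak in both GR-KO libraries, close to the 0.867% of all GR sites. A peak in both GR-con libraries and in neither GR-KO library was found at 1469 distal sites (23.3%), with 20.0% over all GR sites. Without GR-KO replicate 1 the number with a GR-KO peak was 98 and the number of both-GR-con sites lacking one was 2300, so these counts rest on that library.

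GR-KO peaks were more frequent where GR-con enrichment was higher. A GR-KO peak was present at 2.54% of distal sites with no GR-con peak and 12.47% of those with 1. Among sites with both GR-con peaks, sorted by rank into 4 classes of equal size, it was present at 21.3%, 34.0%, 40.1% and 58.6%, low to high. Of the 68 sites with a complete GRE, 39 had both GR-con peaks and 5 had a GR-KO peak (7.35%). The GRE share was 0.416% (interval 0.178% to 0.971%) among sites with a GR-KO peak and 2.31% (1.66% to 3.22%) among those with both GR-con peaks and none in GR-KO. The LHX pattern went the other way, at 6.66% and 3.81%, as did its share in the flanks, at 3.37% and 2.14%. Median GC content at the summit was 49.5% and 54.5% in the same groups, and its part in these shares was not tested.

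Of the other sites without a GR-KO or DR peak that ranked high in GR-con, 4 are given as examples. Ntrk2, which encodes the receptor of the neurotrophin BDNF, had a site with 17.8-fold and 13.4-fold enrichment in GR-con. A site in an intron of Ptprm, a receptor tyrosine phosphatase, had 18.7-fold and 13.2-fold. Prex1 encodes a Rac exchange factor and its site had 12.8-fold and 12.9-fold. An exonic site whose nearest coding start was that of Rhob, a small GTPase of the actin cytoskeleton, 46.5 kb away, had 13.9-fold and 13.1-fold. All of these came from a rule on GR-con rank, so their order is a description.

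Other sites with high GR-con enrichment kept a peak in GR-KO. In an intron of Ntm, the gene of the adhesion protein neurotrimin, enrichment was 16.5-fold and 8.63-fold in GR-KO and 21.1-fold and 20.1-fold in GR-con. In Myo10, an unconventional myosin of filopodia, it was 12.9-fold and 7.76-fold in GR-KO and 12.03-fold and 9.57-fold in GR-con. Slc6a11 encodes the GABA transporter GAT-3, and its intronic site had 7.75-fold and 6.28-fold in GR-KO and 8.89-fold and 9.11-fold in GR-con. Fold enrichment is set against the background of each library, so these folds are not a difference in binding between groups. The Myo6 site (a myosin that moves towards the minus end of actin) had 14.04-fold in GR-KO replicate 1 alone, against 16.7-fold and 11.97-fold in GR-con.

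GR peaks after dark rearing were few at these sites. They were called at 0.523%, 0.222% and 2.26% of the distal sites of both factors in the 3 DR libraries. In the NR libraries, each scored at the sites that could be made without it, the shares were 93.2%, 19.5% and 99.2%. These were shares of 1297, 6217 and 1212 sites. The low NR share belonged to replicate 2, whose list held 2262 peaks against 14012 and 21539. Each NR share was above each DR share, but the NR and DR shares are over different sets of sites. Of the 1210 sites called in all 3 NR libraries, 9.42% had a peak in at least 1 DR library. As NR peaks define the sites, this is a description with no test. The DR lists held 69, 28 and 293 peaks, and the share of them at distal sites of both factors was similar in all 3, at 49.3%, 50.0% and 49.1%. In NR it was 45.2%, 59.8% and 29.4%.

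In total 145 distal sites of both factors (2.30%) had a DR peak, against 1.80% of all astrocyte GR sites, 0.864% of promoter sites of both and 6.37% of distal GR sites without NFIA. Of these, 11 had a peak in all 3 DR libraries, 23 in 2 and 111 in 1. Without DR replicate 3 the total was 36. Of the 145 sites, 131 had both GR-con peaks and 114 had been called in all 3 NR libraries. A peak in both a DR and a GR-KO library was found at 87 sites (1.38%, against 0.859% of all GR sites). This is 7.24% of the 1201 sites with a GR-KO peak. Seen from the DR peaks, 87 of the 145 sites had a GR-KO peak, against 19.0% of all distal sites of both factors. Among the 2388 distal sites with both GR-con peaks, 919 had a GR-KO peak.

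A site near Dusp1, one near Lao1 and one in Tns3 were among the 11 with a peak in all 3 DR libraries. Downstream of the start of Dusp1, a MAP kinase phosphatase and known glucocorticoid target, the site at chr17:26504058-26504618 had 7.82-fold, 8.23-fold and 16.5-fold enrichment in DR, and 9.08-fold, 21.5-fold and 10.2-fold in NR. It also had 5.03-fold in GR-KO replicate 1, against 10.4-fold and 13.6-fold in GR-con. Its peaks were present in all 4 DEX and all 4 vehicle libraries of 3T3 cells, and its GR summit minus its NFIA summit was -325 bp, far from the median distance. An intergenic site nearest to Lao1, at chr4:119008631-119008855, had 15.9-fold, 14.2-fold and 26.4-fold in DR and 6.42-fold, 33.8-fold and 19.1-fold in NR. In an intron of Tns3, the gene of the focal adhesion protein tensin 3, DR enrichment was 6.11-fold, 9.60-fold and 24.2-fold, beside GR-con peaks of 12.6-fold and 11.1-fold and none in GR-KO. The Tns3 site was also the only distal site of both factors with a GR peak in all 3 oligodendrocyte libraries.

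**Figure D3:**
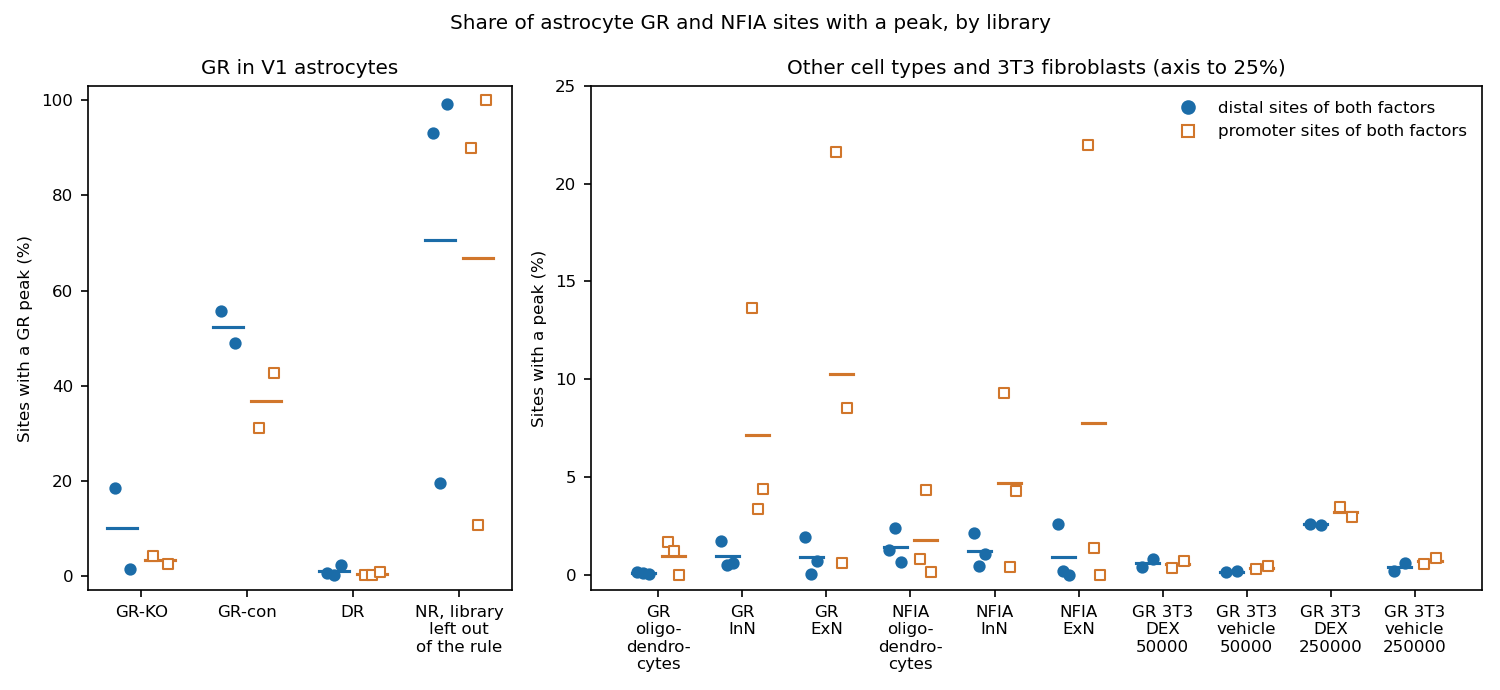
Share of distal (blue circles) and promoter (orange squares) sites of both factors with a peak in each library (%), with the mean as a bar. Left, GR in astrocytes, with each NR library scored at the sites made without it. Right, other cell types and 3T3 cells on an axis to 25%. At distal sites the GR-con libraries reached 55.7% and 49.0%, no GR library of another in vivo cell type exceeded 1.95%, and ExN replicate 1 reached 21.6% at promoter sites.

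In the other cell types of the same cortex almost none of these sites had a GR peak. The shares were 1.69%, 0.507% and 0.602% in InN, 1.95%, 0.0158% and 0.681% in ExN, and 0.111%, 0.0950% and 0.0158% in oligodendrocytes. The libraries of oligodendrocytes had 110, 81 and 4 peaks in all. InN minus ExN was 0.0528 percentage points (exact permutation p = 1.0), InN minus oligodendrocytes 0.860 (p = 0.1, exact permutation) and ExN minus oligodendrocytes 0.808 (p = 0.4, exact permutation). With 3 libraries against 3 the smallest possible p is 0.1, and after Benjamini-Hochberg adjustment over 6 comparisons the lowest was 0.6, so none passed the threshold of 0.05.

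For NFIA the shares at distal sites of both factors were 1.24%, 2.41% and 0.633% in oligodendrocytes, 2.11%, 0.428% and 1.08% in InN and 2.58%, 0.158% and 0% in ExN. The third ExN library held 1 peak, and a count of 0 among 6315 sites says little at that depth. The 3 differences between cell types were -0.222 points for InN minus oligodendrocytes, -0.512 for ExN minus oligodendrocytes and 0.290 for InN minus ExN, and none passed (exact permutation p of 0.7, 0.6 and 0.8, adjusted 0.96 each). The NFIA peaks that oligodendrocytes did have were often at these sites, which took 38.8%, 21.2% and 36.04% of the 3 lists. The sites took 6.97%, 15.2% and 5.28% of the NFIA lists of InN. For GR they took 2.48% to 4.46% of the InN lists and 1.64% to 2.74% of the ExN lists.

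Counted over libraries, 10 distal sites of both factors had a GR peak in oligodendrocytes (0.158%, against 1.02% of all astrocyte GR sites), 139 in InN (2.20%, against 8.60%) and 139 in ExN (2.20%, against 11.4%). NFIA peaks were present at 166 in oligodendrocytes (2.63%, against 3.33%), 172 in InN (2.72%, against 6.74%) and 164 in ExN (2.60%, against 11.2%). No peak of either factor in oligodendrocytes, InN or ExN was called at 5767 sites (91.3%). The share over all GR sites was 76.5% and that of promoter sites of both factors 57.6%. At distal GR sites without NFIA it was higher, at 97.6% (444 of 455). Peaks of 3T3 cells were not counted in these shares.

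The difference from promoter sites was tested within libraries. In the 9 GR libraries of the other cortical cell types, distal sites of both factors had a peak less often than promoter sites of both factors by a mean of 5.48 percentage points, and in 8 of 9 libraries. The difference was -5.48 with an exact sign-flip permutation p of 0.00781, adjusted 0.0469 over 6 comparisons. Leaving out any 1 of 8 of these libraries raised the adjusted p to 0.0938, with the difference at -3.71 without ExN replicate 1. In the 7 GR libraries of astrocytes outside the rule (GR-KO, GR-con and DR) the difference was 6.61 points in favour of distal sites (exact permutation p = 0.0781, adjusted 0.156) and did not pass. It was 3.62 without GR-con replicate 1. Against distal GR sites without NFIA the differences were 0.0682 points in other cell types (p = 0.766, exact permutation) and 7.73 in astrocytes (p = 0.203, exact permutation), which was 3.53 without GR-con replicate 2. For NFIA in other cell types they were -3.55 points against promoter sites (p = 0.0625, exact permutation) and -0.0527 against distal NFIA sites without GR (p = 0.723, exact permutation). None of these passed after adjustment.

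The 240 distal sites with a GR peak in InN or ExN differed from the rest in place and composition. Of them, 41.3% lay within 2 kb of an annotated start against 16.7% of the others, the median GC content at the summit was 57.4%, and the mean number of CpG dinucleotides in the window was 4.76 against 2.08 over all distal sites of both factors. The site with GR peaks in all 3 InN libraries that ranked best was near Syn2, the gene of synapsin II, a synaptic vesicle protein, and it also had 3.58-fold and 5.48-fold enrichment in GR-KO beside 10.3-fold and 9.52-fold in GR-con. The sites near Tle3, a Groucho corepressor, and Rap2a, a small GTPase, each had GR peaks in 2 InN and 2 oligodendrocyte libraries, and in 1 and 2 ExN libraries. Enrichment in GR-con was 3.20-fold and 3.61-fold for Tle3 and 1.97-fold in 1 library for Rap2a.

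The sites with an NFIA peak in oligodendrocytes stood out by their sequence. The shortened NFI palindrome was present at the GR summit in 35 of these 166 sites (21.1%, interval 15.6% to 27.9%) and in 7.43% of the 296 with an NFIA peak in InN or ExN, against 1.87% of all distal sites of both factors. Seen from the motif, 31.8% of the 154 sites with the palindrome at the NFIA summit had an NFIA peak in oligodendrocytes, against 1.90% of the other sites. In astrocytes their median NFIA enrichment was 21.2-fold, 21.3-fold and 17.5-fold in the 3 libraries, against 9.94-fold, 8.90-fold and 7.85-fold at the other sites. For GR they did not stand higher, as 29.9% had both GR-con peaks, against 37.8% of all distal sites of both factors.

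DEX binds GR directly, and the 3T3 libraries ask which of these astrocyte sites a fibroblast line uses under the hormone analogue. GR peaks were called at 2.60% and 2.55% of the distal sites of both factors after DEX with 250000 nuclei, against 0.206% and 0.602% after vehicle. With 50000 nuclei the shares were 0.412% and 0.792% after DEX and 0.143% and 0.158% after vehicle. At each number of nuclei both DEX libraries were above both vehicle libraries. The whole lists differed likewise, with 5010 and 4654 peaks after DEX against 382 and 1035 after vehicle at 250000 nuclei, and 720 and 1391 against 189 and 320 at 50000. The distal sites of both factors took 3.31% to 3.61% of the peaks after DEX and 3.13% to 4.76% after vehicle, so the higher shares after DEX went with longer lists. DEX minus vehicle was 2.17 percentage points at 250000 nuclei and 0.451 at 50000. The mean difference was 1.31 percentage points, with an exact permutation p within nuclei numbers of 0.0556, the smallest this design allows. In all, 221 distal sites had a peak after DEX in at least 1 library (3.4996%, against 4.01% of all astrocyte GR sites) and 41 after vehicle (0.649%, against 0.955%). All 4 DEX libraries shared 22 sites, of which 15 had no vehicle peak.

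Among the 221 sites the GRE share was 5.88% (interval 3.47% to 9.80%) and the AP-1 share 10.9% (7.41% to 15.7%), against 1.08% and 2.79% of all distal sites of both factors. Of the 68 distal sites with a complete GRE, 13 (19.1%) had a DEX peak. Among the 145 sites with a DR peak the GRE share was 2.76%, from 4 sites.

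**Figure D4:**
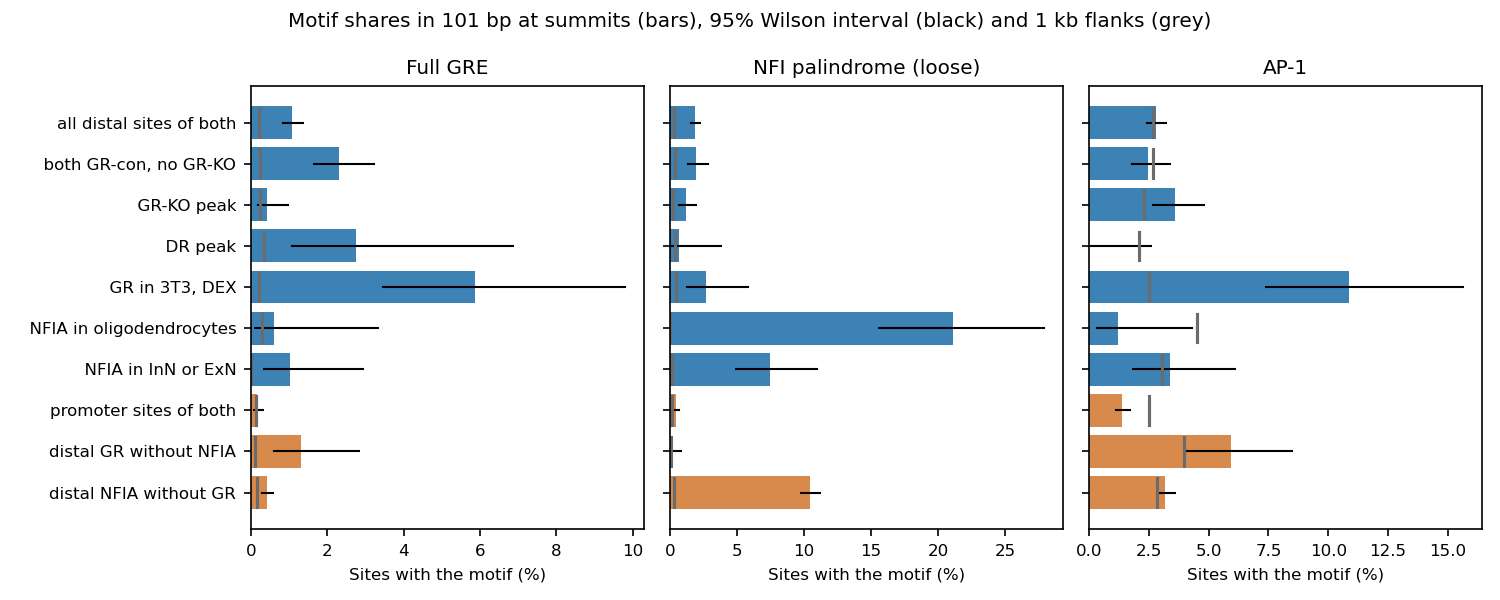
Share of sites (%) with a full GRE, the shortened NFI palindrome or an AP-1 site within 50 bp of the summit. Blue bars are distal sites of both factors and subsets of them, orange bars are comparison sites, black lines are 95% Wilson intervals and grey ticks the share in 1 kb flanks. The GRE share was 5.88% among sites with a DEX peak in 3T3 cells, the palindrome share 21.1% among those with an NFIA peak in oligodendrocytes and 10.5% at distal NFIA sites without GR.

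Of all 21842 protein-coding genes, 23.0% had a distal site of both factors within 50 kb of a start and 7.62% within 10 kb. Among the lists of astrocyte genes, the nuclear factor I family was complete, with a site near Nfia, Nfib, Nfic and Nfix and 34 sites in all. Of 24 glial transcription factors, 22 had a site (91.7%), all but Emx2 and Stat3. For glutamate uptake and recycling it was 11 of 14 (78.6%), for astrocyte metabolic enzymes 18 of 24 and for morphology and maturation genes 18 of 24. Canonical glucocorticoid targets had a site at 20 of 30 genes (66.7%), circadian clock genes at 13 of 20 (65.0%), synapse organisers and phagocytic receptors at 14 of 22 (63.6%) and endfoot channels and transporters at 11 of 18 (61.1%). Immediate early genes reached 9 of 19 (47.4%) and adhesion and guidance receptors 11 of 24 (45.8%). These lists were chosen with earlier results of these data known, and overlap between lists such as Per1 and Mertk is counted in each.

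Markers of other cells stood between 5.88% and 33.3%, around the 23.0% of all genes. A distal site of both factors was present near 6 of 18 markers of the oligodendrocyte lineage (33.3%), 4 of 15 of excitatory neurons (26.7%), 4 of 16 of endothelial and mural cells (25.0%), 2 of 13 of microglia (15.4%) and 1 of 17 of inhibitory neurons (5.88%). Housekeeping genes stood at 5 of 20 (25.0%). Near Cx3cr1, P2ry12, Gad1, Gad2, Slc17a7 and Mbp, no such site lay within 50 kb. Other markers of the same lists did have one. These were Csf1r and Tyrobp for microglia, Pvalb for inhibitory neurons and Neurod2, Rorb, Fezf2 and Grin2b for excitatory neurons. For the oligodendrocyte lineage they included Mog, Cnp, Myrf and Opalin. The oligodendrocyte list reached its count partly through Olig1 and Olig2, which are also on the glial transcription factor list and share their sites.

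**Figure D5:**
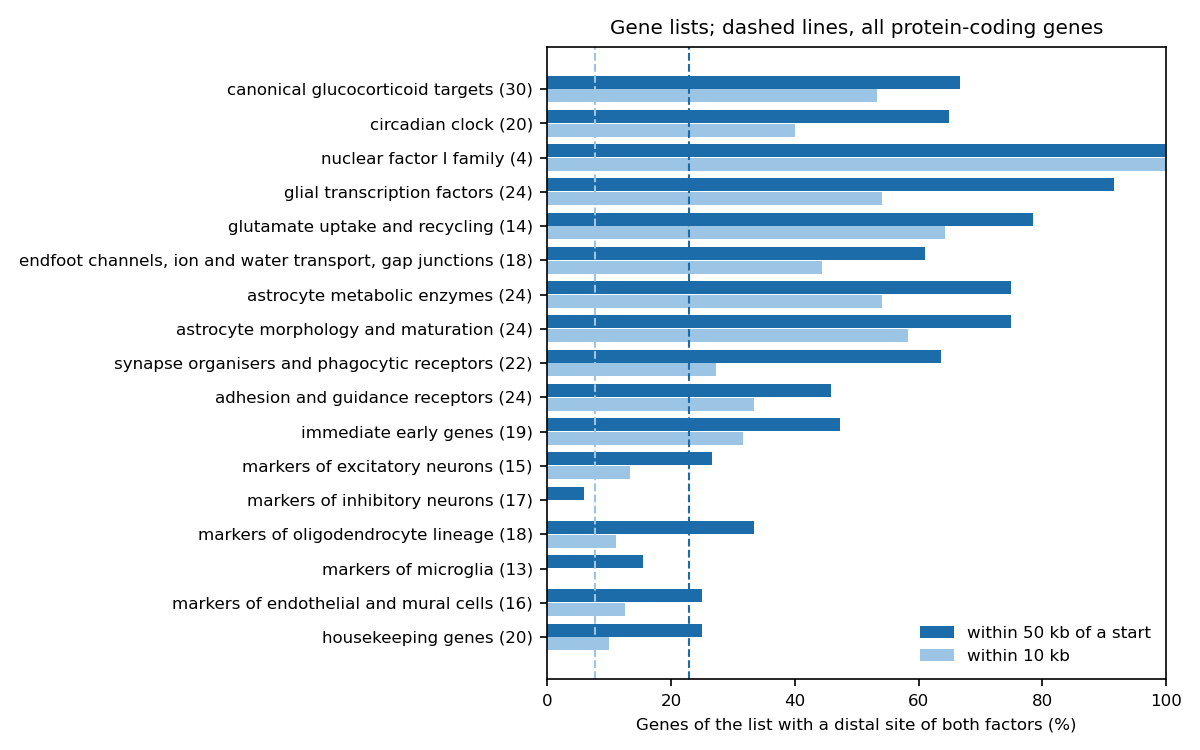
Share of the genes of each list (number of genes in brackets) with a distal site of both factors within 50 kb (dark) or 10 kb (light) of a start, with dashed lines for all protein-coding genes. The nuclear factor I, glial transcription factor, glutamate, metabolic, morphology, synapse and endfoot lists lie between 61.1% and 100.0% at 50 kb. Markers of the oligodendrocyte lineage and of microglia lie at 33.3% and 15.4%, and the dashed lines at 23.0% and 7.62%.

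Within the lists, the sites with the highest GR-con rank had the following values. Among glucocorticoid targets, an intronic site of Tsc22d3, the gene of the glucocorticoid-induced leucine zipper protein, had 7.04-fold enrichment in GR-KO replicate 1 and 9.81-fold and 15.7-fold in GR-con, with no DR peak. Mertk, a phagocytic receptor, had an intronic site with 9.80-fold and 12.6-fold in GR-con and no peak in GR-KO or DR. Of the clock genes, the nuclear receptor gene Rora had an intronic site with 6.68-fold in GR-KO replicate 1 and 15.0-fold and 18.2-fold in GR-con. Sites near 10 of the canonical glucocorticoid targets were not found, among them Fkbp5, Sgk1 and Zbtb16.

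NFI genes themselves carried such sites. An intronic site of Nfia had 5.61-fold enrichment in GR-KO replicate 1 and 14.2-fold and 11.3-fold in GR-con, with NFIA peaks of 21.8-fold, 15.4-fold and 15.7-fold. An intronic site of Nfib had 4.58-fold in GR-KO replicate 1 and 7.15-fold and 6.98-fold in GR-con, and 7.83-fold in DR replicate 3. The best sites of Nfic and Nfix each had a peak in only 1 GR-con library, of 6.45-fold and 6.14-fold. Among glial regulators, an intronic site of Zbtb20, a zinc finger transcriptional repressor, had 12.3-fold in GR-KO replicate 1, against 12.48-fold and 13.3-fold in GR-con. Sites near Id3, an inhibitor of bHLH factors, and Hopx, an atypical homeodomain protein, had 9.06-fold and 5.85-fold in that GR-KO library.

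Transport and metabolism genes showed both kinds of site. Upstream of Slc1a2, the main astrocyte glutamate transporter, the site had 5.27-fold enrichment in GR-KO replicate 1 and 9.71-fold and 10.7-fold in GR-con. Aqp4, the endfoot water channel, had an intronic site with 8.01-fold in GR-KO replicate 1 and 10.0-fold and 13.1-fold in GR-con. No GR-KO or DR peak was called at the sites of Atp1b2, the sodium pump beta subunit (8.82-fold and 13.3-fold in GR-con), Gpam, which starts triglyceride synthesis (9.01-fold and 12.7-fold), Acsl6, an acyl-CoA synthetase (7.94-fold and 9.83-fold), and Etnppl, a phospholyase of astrocytes (10.3-fold and 7.68-fold). Of the genes of astrocyte shape, Ptprz1, a receptor phosphatase, had 6.26-fold in GR-KO replicate 1 and 20.4-fold and 18.2-fold in GR-con. Plpp3, a lipid phosphate phosphatase of the cell surface, had 5.06-fold and 5.24-fold in GR-KO and 15.7-fold and 10.2-fold in GR-con.

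Distal sites of both factors also lay in groups. Grouped with their near neighbours, with a median gap of 3015 bp and a widest gap of 12483 bp inside a group, 2689 of them (42.6%) fell into 1051 groups of at least 2. The largest held 11 sites over 59.0 kb at chr6:90450326-90509367, between and around Aldh1l1, a folate enzyme widely used to mark astrocytes, and Klf15, a glucocorticoid-induced zinc finger gene. Of these 11, both GR-con libraries had a peak at 5 and a GR-KO library at 1. A group of 9 near Cpe, the gene of carboxypeptidase E, had a GR-KO peak at 6, and a group of 7 at Ptn, the gene of the growth factor pleiotrophin, at 5. The group of 7 at Fgfr3, a fibroblast growth factor receptor of astrocytes, had both GR-con peaks at 5 and a GR-KO peak at 1. By number within 50 kb of a start, Igsf8 had 16 sites, Kcnj10, Kcnj9 and Klf15 had 13 each, and Fgfr3 and Nfix had 11 each. By nearest start, Msi2, an RNA-binding protein of neural progenitors, had 19, and Ptn and Sox9, the gliogenic transcription factor, had 15 each.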

How the data were processed

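The authors' methods state that reads were trimmed (cutadapt), aligned to mm10 (Bowtie2), cleared of duplicates (Picard) and poor alignments (SAMtools) and limited to fragments of at most 120 bp (deepTools), and that peaks were called per library against IgG (MACS2). The deposited peaks carry a fold enrichment (a ratio to local background), a −log10 p and a −log10 q. The highest q was 0.00999 in the deposited in vivo lists and 0.0498 in the 3T3 lists. No source used here names the IgG library set against each one. Of 50 samples, 39 had a peak list (27 GR, 12 NFIA). The 11 IgG and GFP-negative samples were not analysed here.

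Sites were merged, annotated with GENCODE M21 and scanned for motifs within 50 bp of the highest summit with Python 3.11.15, numpy 2.4.6, pandas 2.3.3, scipy 1.17.1 and pysam 0.24.0. GENCODE M21 and the RefSeq genome are both on GRCm38.p6. A library had a peak at a site when they overlapped by at least 1 bp. Shares per library were compared by two-sided exact permutation of libraries, or of signs within libraries between kinds of site, with Benjamini-Hochberg adjustment within each family and a threshold of 0.05. Wilson intervals are at 95%. The test code was tested on simulated data, where 12 of 13 checks were recovered exactly and the remaining one, a rate under no difference, within its sampling error. Replicates are those of the labels, and for 3T3 cells the sources used here do not say how cultures were kept apart, so a p-value covers no more than the spread between libraries. Read depth is unknown, since a peak list gives only what passed the caller.

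The sites, gene lists and tests were chosen with earlier results of these data known. Named sites were, by rule, up to 4 best-ranked per gene list (1 per gene), the 12 best-ranked without GR-KO and DR peaks, 12 with both, 12 with GR peaks in most libraries of other cell types, the 10 largest neighbour groups, those shown by sequence and the 3 nearest to the 500 bp threshold on each side. The text gives part of these, and some items are not reported here. Alternatives changed the calling rule, q, list length, promoter distance, set of starts, motif window and gene window. They also changed the gap allowed between a site and a library's peak, left out single libraries and added a replicate block.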

Additional observations from a re-analysis of the deposited data

Results flagged for a closer look

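Distal and promoter sites of both factors differed in opposite directions between cell types. The share with a GR peak at distal minus promoter sites was 6.61 percentage points on average in the 7 astrocyte libraries outside the rule and -5.48 in the 9 libraries of oligodendrocytes, InN and ExN, a difference of 12.1 points. This comparison was prompted by the values themselves and pools GR-KO, GR-con and DR libraries, so no p is given. The difference was positive in 6 of 7 astrocyte libraries, the exception being GR-KO replicate 2 at -0.914, and in 1 of 9 of the others, oligodendrocyte replicate 3 at 0.0158, whose list holds 4 peaks. The largest values were 24.6 in GR-con replicate 1 and -19.7 in ExN replicate 1.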

How the results depend on the processing

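Of 414 recomputed values, 335 were held to be the same, 42 moved, 22 reversed, 7 became stronger and 8 weaker. A tested difference was the same when it kept its direction and its side of the threshold. A share or median was the same when it moved by less than its error. A count of sites or genes was the same when it stayed within a set ratio of its main value. The cause of each shift was not tested, other than that fewer sites or libraries entered.

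Defining GR and NFIA sites by peaks in all 3 libraries in place of 2 gave 1145 distal sites of both factors (92.6% of distal GR sites), with a GRE at 1.66%, no complete NFI palindrome (0%), a half-site at 20.5% and introns at 60.9%. InN minus ExN for NFIA was then -0.116 points, distal sites with minus without NFIA for GR in other cell types -0.0551, and distal minus promoter sites for NFIA in other cell types -7.75 (exact permutation, adjusted p = 0.0234). With q below 0.0001, InN minus ExN for GR was -0.0775 and with minus without NFIA -0.206. The top 2000 peaks of each library gave 492 sites, 55.3% of distal GR sites, with palindrome 0%, half-site 23.6%, introns 52.0%, and -5.86 for NFIA against distal NFIA sites without GR (exact permutation, adjusted p = 0.0234). The contrast with and without NFIA for GR in other cell types was -0.0132 with a gap of 200 bp, -0.115 with promoters of 2000 bp and 0.689 (exact permutation, adjusted p = 0.0156) when NFIA overlap was still decided by 2 libraries and the sites compared were then limited to those called in all 3, where NFIA against promoter sites was -7.67. With protein-coding starts only, InN minus ExN for GR was -0.00968 and distal sites with minus without GR for NFIA 0.0331. With 100 bp to either side of the summit the GRE share was 1.81%, the half-site share 30.5% and that of the shortened palindrome 2.80%. With 10 kb in place of 50 kb, 8 circadian clock genes, 13 glial transcription factors and 6 synapse organisers had a site, and 2, 0, 2, 0 and 2 markers of excitatory neurons, inhibitory neurons, oligodendrocytes, microglia and endothelial cells.

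Leaving out 1 library at a time, the number of distal sites of both factors was 1212 to 6217 (1297 without NR replicate 1, 1212 without replicate 3), their share of distal GR sites 85.7% to 96.96%, the summit distance 24 to 31 bp, GRE 1.01% to 1.73%, complete palindrome 0% to 0.0172%, half-site 19.2% to 20.2% and introns 55.8% to 60.97%. Ranges over single libraries were -0.380 to 0.586 points for InN minus ExN (GR), -0.166 to 1.12 (NFIA) and -1.21 to 0.269 for InN minus oligodendrocytes (NFIA). They were 0.480 to 1.07 for InN and 0.274 to 1.24 for ExN minus oligodendrocytes (GR), lowest without InN replicate 1 and ExN replicate 1, and -1.35 to -0.0211 for ExN minus oligodendrocytes (NFIA). DEX minus vehicle ranged over 1.21 to 2.12, highest without NR replicate 3. Distal minus promoter sites in other cell types ranged over -16.4 to -3.71 for GR and -8.49 to -1.57 for NFIA, and over 3.62 to 7.87 in astrocytes outside the rule (3.53 to 9.86 against distal sites without NFIA), distal sites with minus without NFIA over -1.49 to 0.464, and distal sites with minus without GR over -0.414 to 0.126. Sites with both GR-con peaks and none in GR-KO numbered 1496 to 2300, with a GR-KO peak 98 to 1167, and with a DR peak 36 to 145.

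Same-numbered libraries correlated at -0.0694 to 0.190 in their deviations from the group. These values cannot settle whether same-numbered libraries shared a preparation, which was not tested. With a replicate block the differences were the same by construction and none passed, at -42.3 points for GR-KO minus GR-con (exact p = 0.5), 1.31 for DEX minus vehicle (exact p = 0.125) and 0.860 for InN minus oligodendrocytes (exact p = 0.25).

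Peak lists show only what passed the caller, so a missing peak does not show that binding is absent. Small lists (4 to 110 GR peaks in oligodendrocytes, 1 NFIA peak in ExN replicate 3) limit what those cell types can show, and the exact tests of 2 or 3 libraries a group could not reach 0.05.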
